A study of Mus musculus with 6 samples.

Results

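The Hedgehog pathway was followed through 8 genes chosen by name, namely the ligand gene Shh, the receptor gene Ptch1, the decoy receptor gene Hhip, the signal transducer gene Smo, the inhibitor gene Sufu and the transcription factor genes Gli1, Gli2 and Gli3. All 8 were among the 43274 genes of the deposited tables, and 7 of them were among the 16368 genes abundant enough to be tested, with 10 or more normalized counts on average per library. Shh fell below this limit. Bulge stem cells (SCs), the quiescent cells that rebuild the hair follicle at each hair cycle, had been sorted by FACS as cells carrying CD34 and high α6 integrin from mouse epidermis at postnatal day 21. RNA-seq was performed on 3 libraries of control and 3 of ILK-K5 cells. Mice of both groups carried Cre driven by the keratin 5 promoter, which is active in basal keratinocytes of the epidermis and its follicles, so that the control mice shared the Cre and differed in the floxed gene. Control mice were Ilk fl/+ K5-Cre and ILK-K5 mice were Ilk fl/fl K5-Cre, given in the labels as ILK +/- and ILK -/-. The controls were littermates on a mixed C57Bl6-129/Sv background, and both sexes were spread over the genotypes.

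Integrin-linked kinase (ILK) is an adaptor that ties integrins to the actin cytoskeleton. In the Hedgehog pathway a secreted ligand binds Ptch1, which otherwise keeps Smo silent in the primary cilium. Active Smo then frees the Gli factors from Sufu, with Gli2 as the main activator, Gli3 mostly a repressor, and Gli1 an activator that is itself a target. Gli1, Ptch1 and Hhip are widely used as readouts of the pathway, and in skin Shh from the growing follicle drives the proliferation of the hair germ and matrix, while Gli1 marks cells of the upper and the lower bulge.

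Each value below is a normalized count, the number of reads on a gene divided by the size factor that the authors gave the library. Between 8228019 and 11969072 reads per library fell on genes, and 1 read was worth between 0.726 and 1.52 normalized counts. Mitochondrial genes took between 11.5% and 27.6% of the reads, with no separation of the genotypes. Genotypes were compared with limma on log2 of the normalized count plus 1, a scale on which the fold change of a low gene is understated, and a gene was called at an adjusted p of at most 0.05. The labels do not say whether the libraries of a group came from separate mice, so that p-values measure the spread between these libraries. Ilk itself could not check the genotypes, since 89.7% of its exon bases are shared with the neighbouring genes Taf10 and Rrp8. Its normalized counts were 10.6, 16.7 and 38.5 in the control and 14.8, 30.9 and 29.2 in the ILK-K5 libraries (log2 fold change 0.30, adjusted p = 0.933). In sorted populations, fewer cells of a type and less RNA per cell cannot be told apart.

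None of the 7 tested pathway genes was called at this limit, against 3.53% of all genes tested. edgeR called 0 of them as well, against 3.11% of all genes, and DESeq2 called 1, Hhip, against 6.43%. At an unadjusted p of at most 0.05 in limma, which 12.3% of all genes tested reached, 1 of the 7 passed, again Hhip. The libraries of the 2 genotypes did not overlap for 3 of the 7, with Sufu and Gli3 above and Hhip below in ILK-K5 bulge SCs, whereas 17.9% of all genes tested did not overlap, 10.9% with ILK-K5 above and 6.95% with ILK-K5 below. Hhip reached the limit for testing through its control libraries alone, where it was higher. Its calls and its lack of overlap are therefore not independent of that limit. The log2 fold changes of the 7 ran from -2.40 to 0.69 with a median of -0.17, beside a median of 0.01 over all genes tested.

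**Figure D1:**
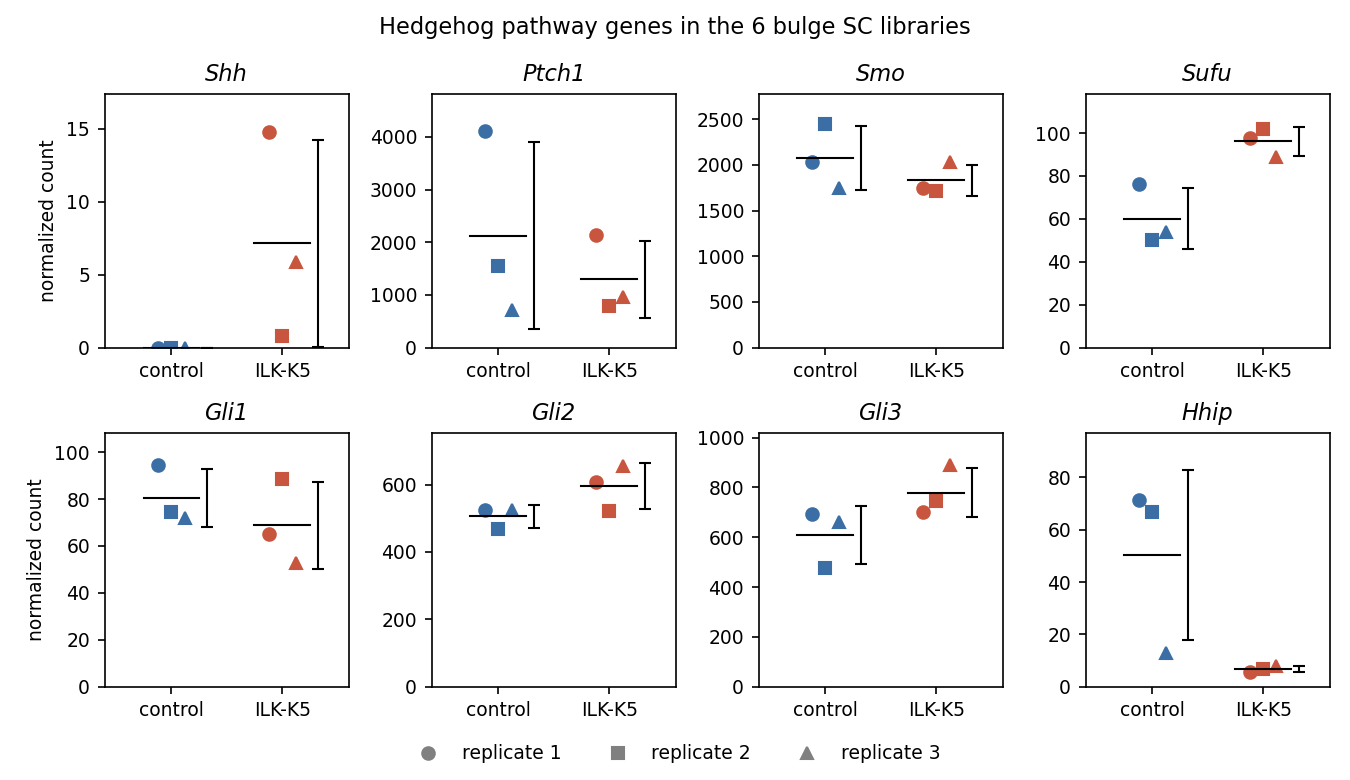
Normalized counts (linear axis from 0) of the 8 Hedgehog pathway genes in the 3 control and 3 ILK-K5 libraries, with a line at the mean and a bar of 1 SD (n = 3), drawn down to 0 at most. Hhip sat between 5.69 and 7.79 in the ILK-K5 libraries, below all 3 control libraries, while Smo, Ptch1, Gli1 and Gli2 overlapped between the genotypes.

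Shh (ENSMUSG00000002633), the main Hedgehog ligand of the follicle, lies on chromosome 5 at 28456815-28467256 (GRCm38, minus strand). It had 0 reads in each of the 3 control libraries and 13, 1 and 6 reads in the ILK-K5 libraries. Every ILK-K5 library thus held a Shh read, though replicate 2 held a single one. The ILK-K5 mean of 7.14 ± 7.10 normalized counts (SD, n = 3) was at least 2.22-fold higher than the floor of 3 reads per library that counts of 0 allow in the controls. This bound rested on ILK-K5 replicate 1, without which it was 1.03-fold. The difference did not pass a test, with an adjusted p of 0.289 in a limma fit without the filter on low values, and with an exact permutation p of 0.1, the smallest that 3 against 3 libraries can give. Of its exon bases, 28.3% are shared with 9530036O11Rik and Gm26894 on the opposite strand. Gm26894 had no read in any library. The other neighbour, 9530036O11Rik, had 3, 4 and 11 reads in the control and 6, 4 and 0 in the ILK-K5 libraries. How reads on shared bases were counted is not given in the sources used here, and the part of this neighbour in the Shh reads was not tested.

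Dhh, a second Hedgehog ligand gene, was also near 0 in controls, with 0, 0 and 2 reads against 14, 30 and 5 in the ILK-K5 libraries. Its ILK-K5 mean of 14.6 ± 9.20 normalized counts (SD, n = 3) was at least 4.56-fold higher than the control floor of 3 reads per library. It too was below the limit for testing, and the fit without the filter gave an adjusted p of 0.132. Its exons share 25.2% of their bases with Rhebl1 and Gm49442, and Rhebl1 had 8, 8 and 9 reads in the control and 2, 9 and 11 in the ILK-K5 libraries. Ihh, the third ligand gene, had reads in 1 control library alone.

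The other genes of ligand processing and release did not pass the test in either direction, with 0 of 7 tested called, against 3.53% of all genes tested. Their median log2 fold change was -0.53. Scube2 encodes a secreted protein that helps release the lipid-modified ligand from cells. It measured 200.7, 211.4 and 443.3 normalized counts in the control and 61.5, 68.6 and 125.7 in the ILK-K5 libraries. All 3 ILK-K5 libraries were therefore below the controls, at a log2 fold change of -1.70 (SE 0.43) and an adjusted p of 0.0717 by limma. DESeq2 gave Scube2 an adjusted p of 0.00579, edgeR 0.0868 and a limma fit with a term for replicate 1 against 2 and 3 0.0184. Disp1, which exports the ligand, overlapped between the genotypes with a log2 fold change of -0.72 (SE 0.40, adjusted p = 0.576). Hhat, the enzyme that adds palmitate to the ligand, overlapped as well (log2 fold change -0.16, SE 0.42, adjusted p = 0.944).

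Ptch1 (ENSMUSG00000021466, chromosome 13 at 63508328-63573598, minus strand), the receptor that holds Smo silent and is a target of the pathway, measured 4117, 1548 and 713 normalized counts in the control and 2129, 795 and 964 in the ILK-K5 libraries. Replicate 1 was the highest library in both genotypes, and the groups overlapped widely. The means were 2126 ± 1774 and 1296 ± 726 (SD, n = 3), and the log2 fold change of -0.49 (SE 0.60) had a 95% interval of -1.86 to 0.87 and an adjusted p of 0.872. Without control replicate 1 the log2 fold change turned to 0.16 (adjusted p = 0.955), and over replicates 2 and 3 alone it was -0.26 (adjusted p = 0.859). The file headers give each replicate a number of its own that both genotypes share, and those of replicates 2 and 3 end alike while that of replicate 1 does not, which the labels do not explain. With 1 library per genotype replicate 1 allows no comparison of its own. A p that misses the threshold does not show that the genotypes had the same level, and the interval for Ptch1 is the widest of the 7 after that of Hhip.

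Hhip (ENSMUSG00000064325, chromosome 8 at 79965851-80058006, minus strand), a membrane protein that binds Hedgehog ligands without signalling and so restrains the pathway that induces it, had the largest difference of the 7 tested genes. It measured 71.4, 66.9 and 13.1 normalized counts in the control and 5.69, 6.94 and 7.79 in the ILK-K5 libraries. These values stand for 74, 44 and 18 reads against 5, 9 and 8. The ILK-K5 libraries lay close together below all controls, whereas control replicate 3 sat nearer to them than to the other controls. The means were 50.5 ± 32.5 and 6.81 ± 1.06 (SD, n = 3), so that the gene passed the limit for testing through its control libraries alone. The log2 fold change was -2.40 (SE 0.75), with a 95% interval of -4.09 to -0.72.

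The call on Hhip depended on the test and on 1 library. By limma its unadjusted p was 0.0103 and its adjusted p 0.159, and the exact permutation p was 0.1, the smallest possible. edgeR on the reads gave an adjusted p of 0.0902, and DESeq2 on the same reads gave a log2 fold change of -2.91 at an adjusted p of 0.00582, where it called 1.71% of all genes lower. Without control replicate 3 limma called Hhip lower in ILK-K5 bulge SCs, at a log2 fold change of -3.18 and an adjusted p of 0.0272, with 0.593% of all genes called lower in the same fit, while leaving out each of the other libraries gave adjusted p-values of 0.306 to 0.460. Control replicate 3 also had the highest sum of 7 markers of differentiated keratinocytes, 17054 normalized counts against 3055 and 8669 in the other controls and 4061 to 6755 in the ILK-K5 libraries, and the part of these cells in the Hhip value was not tested. Over replicates 2 and 3 alone, the log2 fold change was -1.89 (adjusted p = 0.438).

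**Figure D2:**
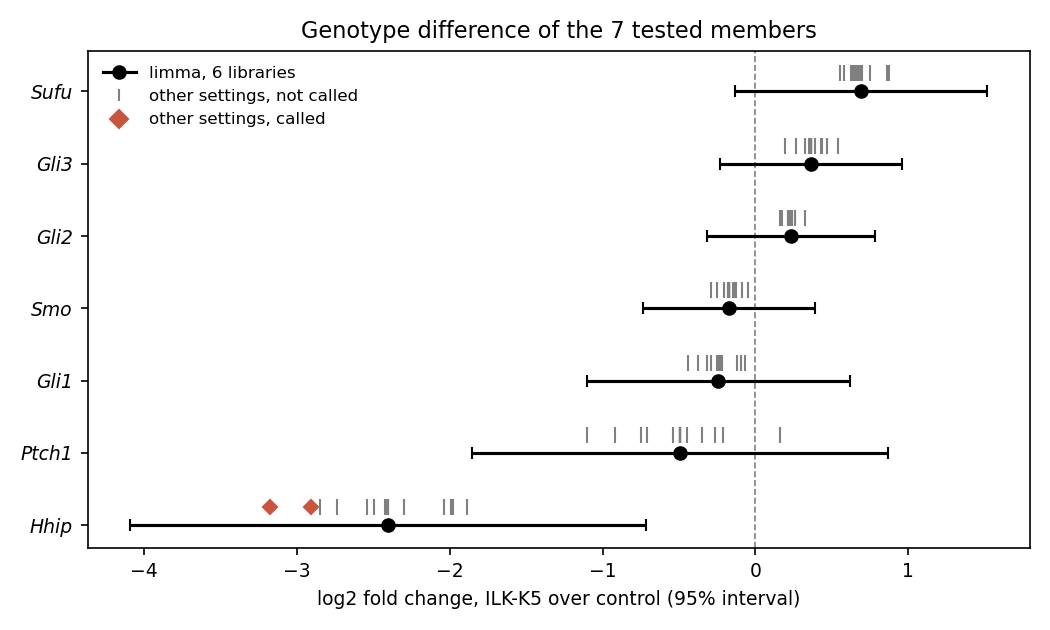
Log2 fold changes of the 7 tested Hedgehog pathway genes, ILK-K5 over control, with the 95% interval of the limma fit on 6 libraries (black). Grey ticks are other settings or left-out libraries in which the gene was not called and red diamonds those in which it was. Hhip alone had an interval that left 0 out, -4.09 to -0.72, and was called in 2 other settings. Ptch1 crossed 0 in 1.

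Sequence around the start sites was read for the pathway genes because Gli factors bind a known motif. RefSeq windows of 300 bases, from 250 before to 50 after the annotated start (GRCm38.p6), were available for 6 of the 8 genes, namely Ptch1, Hhip, Smo, Sufu, Gli2 and Gli3. The Gli consensus GACCACCCA, read on both strands, was present in 0.253% of all 32851 mouse windows and in none of these 6. Its core ACCACCC, which lies within the consensus, was present in 4.61% of all windows and in 1 of the 6, that of Gli2. The Hhip window is printed as that of the gene with the largest difference and the Gli2 window for its match, each 5′ to 3′ along the gene, with the match in capitals (the core as read on the other strand). A match describes letters alone, and its lack in a window says nothing about binding elsewhere.
Hhip, chr8:80057959-80058258, minus strand: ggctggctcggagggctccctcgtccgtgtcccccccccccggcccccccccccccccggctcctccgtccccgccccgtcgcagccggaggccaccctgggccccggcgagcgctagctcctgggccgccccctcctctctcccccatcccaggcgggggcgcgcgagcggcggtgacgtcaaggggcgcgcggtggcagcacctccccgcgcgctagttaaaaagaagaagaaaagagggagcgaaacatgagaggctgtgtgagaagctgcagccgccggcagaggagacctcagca
Gli2, chr1:119053570-119053869, minus strand: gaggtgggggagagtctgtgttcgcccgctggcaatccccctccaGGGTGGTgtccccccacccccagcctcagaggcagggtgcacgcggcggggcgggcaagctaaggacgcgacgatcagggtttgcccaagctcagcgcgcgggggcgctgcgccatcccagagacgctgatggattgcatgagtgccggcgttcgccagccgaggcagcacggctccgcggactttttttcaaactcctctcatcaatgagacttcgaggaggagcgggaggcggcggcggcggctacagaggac
The match in the Gli2 window begins 205 bases before the annotated start. The Hhip window had a GC content of 73.7% with 30 CpG dinucleotides, and the Gli2 window one of 67.3% with 28.

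Among the other receptors and co-receptors, Cdon was lower in ILK-K5 bulge SCs, which was 1 gene called of 4 tested. Cdon, Boc and Gas1 encode surface proteins that present the ligand to Ptch1. Cdon (ENSMUSG00000038119) measured 2170, 944 and 983 normalized counts in the control and 397, 361 and 454 in the ILK-K5 libraries. All 3 ILK-K5 libraries were below all controls, and the means were 1366 ± 697 and 404 ± 46.9 (SD, n = 3). The log2 fold change was -1.65 (SE 0.35, 95% interval -2.44 to -0.86, adjusted p = 0.0351), a 3.13-fold reduction, where 0.599% of all genes tested were called lower. edgeR (adjusted p = 0.0352) and DESeq2 (adjusted p = 5.92e-04) called Cdon as well. The limma call was lost without control replicate 2 (adjusted p = 0.0697) and without ILK-K5 replicate 1, 2 or 3 (adjusted p = 0.107, 0.154 and 0.0981), with log2 fold changes of -1.86 to -1.26 over the 6 left-out libraries. Over replicates 2 and 3 alone the call was lost too (log2 fold change -1.25, adjusted p = 0.0677). The same held for the deposited length-scaled values (FPKM), at an adjusted p of 0.0713 by limma.

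The related co-receptors were not called. Boc measured 1426, 710 and 658 normalized counts in the control and 665, 430 and 501 in the ILK-K5 libraries, which overlapped, at a log2 fold change of -0.74 (SE 0.35, adjusted p = 0.459). Gas1 was abundant in both genotypes, at 4728, 3662 and 2199 against 3767, 3121 and 3089 normalized counts, with a log2 fold change of -0.02 (95% interval -0.75 to 0.71, adjusted p = 0.991). Boc and Gas1 are given for their roles and were chosen after their values were seen, as were Disp1 and Hhat above.

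Smo (ENSMUSG00000001761, chromosome 6 at 29735503-29761365, plus strand), the transducer that Ptch1 holds back, measured 2037, 2444 and 1744 normalized counts in the control and 1751, 1709 and 2027 in the ILK-K5 libraries. The genotypes overlapped, and the spread of both groups was small beside their level. The log2 fold change of -0.17 (SE 0.25) had a 95% interval of -0.74 to 0.39, an adjusted p of 0.895 and an exact permutation p of 0.3.

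Between Smo and the Gli factors, 1 of 20 tested genes was called and the median log2 fold change was 0.08. Arrb2, which encodes a β-arrestin that binds many receptors including Smo, rose in ILK-K5 bulge SCs. Its normalized counts were 72.4, 39.5 and 64.6 in the control and 204.9, 265.3 and 179.2 in the ILK-K5 libraries. Every ILK-K5 library was above every control, at a log2 fold change of 1.89 (SE 0.37, 95% interval 1.05 to 2.72, adjusted p = 0.0241), where 2.93% of all genes tested were called higher. The call was lost without control replicate 2 (adjusted p = 0.0782) and without ILK-K5 replicate 1, 2 or 3 (adjusted p = 0.0804, 0.164 and 0.0906). Over replicates 2 and 3 alone it was lost too (adjusted p = 0.0553 by limma). Arrb2 is abundant in leukocytes as well, and all 13 macrophage markers were called higher in ILK-K5 libraries, with summed levels of 192 to 339 normalized counts in the control and 15398 to 22029 in the ILK-K5 libraries. Several of these markers passed the limit for testing through ILK-K5 libraries alone, among them Fcgr1, which was at 0 in all 3 controls. The part of these cells in the Arrb2 value was not tested. The other 19 genes of this step, among them the kinesin gene Kif7, the receptor gene Gpr161 and the genes of protein kinase A, overlapped between the genotypes.

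Sufu (ENSMUSG00000025231, chromosome 19 at 46396896-46488804, plus strand), which keeps Gli factors in the cytoplasm, measured 76.2, 50.2 and 53.7 normalized counts in the control and 97.9, 101.8 and 88.6 in the ILK-K5 libraries. Each ILK-K5 library was above each control. The means were 60.0 ± 14.1 and 96.1 ± 6.76 (SD, n = 3), a log2 fold change of 0.69 (SE 0.36) with a 95% interval of -0.13 to 1.52. The difference did not pass the test over all genes (p = 0.0897, adjusted p = 0.540 by limma), and the exact permutation p was 0.1, the smallest possible. Of all genes tested, 10.9% had their ILK-K5 libraries above their controls in the same way.

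Gli1 (ENSMUSG00000025407, chromosome 10 at 127329882-127341974, minus strand), the activator and target, was low in both genotypes. It measured 94.6, 74.5 and 71.8 normalized counts in the control and 64.9, 88.7 and 52.6 in the ILK-K5 libraries. The groups overlapped, with the second ILK-K5 library above 2 of the 3 controls. The means of 80.3 ± 12.4 and 68.7 ± 18.4 (SD, n = 3) differed by a log2 fold change of -0.24 (SE 0.38), with a 95% interval of -1.10 to 0.62 and an adjusted p of 0.903. Of the exon bases of Gli1, 6.55% are shared with Arhgap9 and Gm47200 on the opposite strand. Arhgap9 had 16, 14 and 22 reads in the control and 28, 84 and 42 in the ILK-K5 libraries, highest in the same ILK-K5 library as Gli1, and how reads on shared bases were counted is not given in the sources used here.

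Gli2 (ENSMUSG00000048402, chromosome 1 at 118834132-119053619, minus strand), the main activator, measured 524.9, 466.8 and 525.3 normalized counts in the control and 609.1, 522.1 and 656.5 in the ILK-K5 libraries. One ILK-K5 library lay within the control range, and the other 2 were above it. The log2 fold change was 0.23 (SE 0.24, 95% interval -0.32 to 0.78, adjusted p = 0.838). Gli3 (ENSMUSG00000021318, chromosome 13 at 15463235-15730026, plus strand), the main repressor, measured 692.7, 475.9 and 661.0 in the control and 701.3, 745.8 and 890.3 in the ILK-K5 libraries. The groups did not overlap, but the lowest ILK-K5 library lay just above the highest control. The log2 fold change was 0.36 (SE 0.26, 95% interval -0.23 to 0.96, adjusted p = 0.729), and the exact permutation p was 0.1. Gli2 and Gli3 moved together over the 6 libraries, with a Pearson correlation of 0.83 of their log2 values, which share library and depth.

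**Figure D3:**
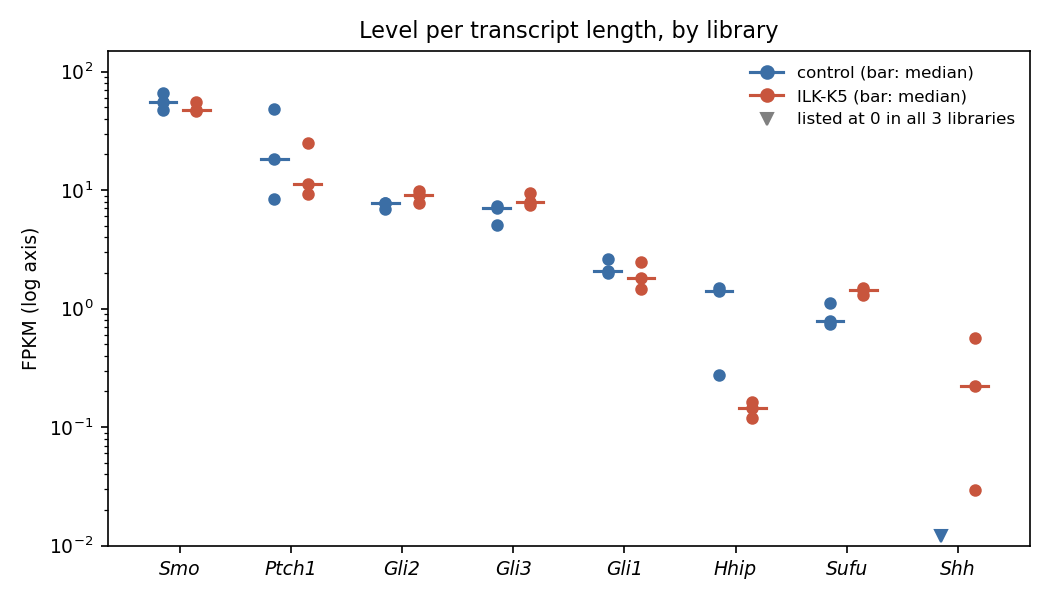
FPKM (fragments scaled by transcript length and library depth, log axis) of the 8 Hedgehog pathway genes in each library, ordered by their control medians, with a bar at the median of each genotype. Smo was highest and Shh, listed at 0 in all 3 controls (triangle), lowest in controls, and Hhip was last in ILK-K5 bulge SCs at a median of 0.145.

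Levels were compared between genes on the deposited FPKM scale, which is corrected for length. In control bulge SCs the median FPKM ran from Smo (55.3) through Ptch1 (18.2), Gli2 (7.84), Gli3 (7.07), Gli1 (2.08), Hhip (1.40) and Sufu (0.793) to Shh, which was listed at 0. Neighbours in this order whose control ranges overlapped were Smo and Ptch1, Gli2 and Gli3, and Hhip and Sufu. In ILK-K5 bulge SCs the order was Smo (47.5), Ptch1 (11.3), Gli2 (9.09), Gli3 (7.98), Gli1 (1.82), Sufu (1.45), Shh (0.223) and Hhip (0.145). The first 5 genes thus kept their places and Hhip went from the sixth to the last. Here Ptch1 overlapped with Gli2, Gli2 with Gli3, Gli1 with Sufu, and Shh with Hhip.

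Ratios of FPKM within a library gave the balance of 2 pathway genes free of the scaling of that library. The ratio of Ptch1 to Hhip was 32.3, 13.0 and 30.6 in the control and 209, 64.1 and 69.3 in the ILK-K5 libraries. Both genes are pathway targets, and the ranges of this ratio did not overlap between the genotypes. Since Ptch1 itself overlapped, the ratio is not a result apart from the low Hhip values, which rest on 5, 9 and 8 reads in the ILK-K5 libraries. The ratios were not among the planned comparisons. The ratio of Gli3 to Gli2, repressor to activator, was 0.730 to 0.945 in the control and 0.825 to 1.02 in the ILK-K5 libraries and overlapped, as did those of Gli2 to Gli1, Gli3 to Gli1, Ptch1 to Smo and Gli3 to Sufu.

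Targets of the pathway other than these genes were taken from a list of 20, of which 14 were tested. One was called, Igfbp3, which encodes a binding protein of insulin-like growth factors and is also controlled by several other pathways. It measured 2578, 1744 and 2820 normalized counts in the control and 206, 372 and 337 in the ILK-K5 libraries. All 3 ILK-K5 libraries were far below the controls, at a log2 fold change of -2.98 (SE 0.32, 95% interval -3.69 to -2.26, adjusted p = 0.00107), a 7.87-fold reduction that was called with each library left out in turn. Ccnd1, the cyclin D1 gene, measured 1779, 1177 and 1181 in the control and 684, 751 and 583 in the ILK-K5 libraries. These groups did not overlap, at a log2 fold change of -1.01 (SE 0.27) and an adjusted p of 0.0899 by limma, 0.0189 by DESeq2 and 0.0232 with the term for replicate 1. Of all genes tested, 3.53% were called by limma in either direction, 0.599% were called lower, and 17.9% did not overlap. The other 12 overlapped between the genotypes, 4 of them with a negative and 8 with a positive log2 fold change, among them Mycn (0.65, adjusted p = 0.723) and Foxm1 (0.19, adjusted p = 0.962). The median over the 14 was 0.17. Nkx2-2 had no read in any library.

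**Figure D4:**
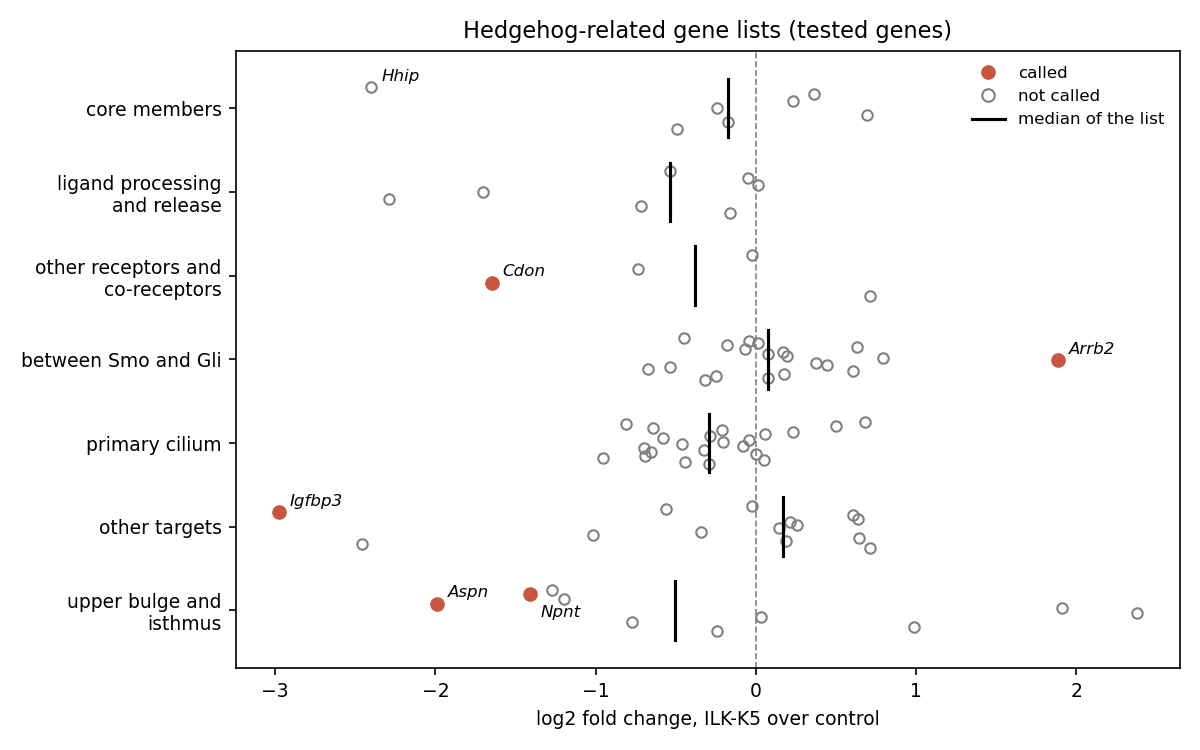
Log2 fold changes, ILK-K5 over control, of the tested genes of 7 Hedgehog-related lists, 1 point per gene, with a bar at the median of each list. Called genes are red and named, and Hhip is named though not called. The 5 called genes were Cdon, Arrb2, Igfbp3, Aspn and Npnt, in 4 of the 7 lists, and the medians ran from -0.53 to 0.17.

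Primary cilium genes, whose products build the organelle in which Smo acts, had none of 22 called, against 3.53% of all genes tested. With so few genes, a lack of calls does not set them apart from all genes. By limma their log2 fold changes ran from -0.96 to 0.68 with a median of -0.29, 17 of them negative and 5 positive, while 49.5% of all genes tested were negative. With each library left out in turn the median lay between -0.34 and -0.13. DESeq2 called 0 of the 22 as well, against 6.43% of all genes. For 3 of the genes all ILK-K5 libraries were below all controls, against 6.95% of all genes tested. Cc2d2a, of the ciliary transition zone, measured 225.8, 197.7 and 203.2 normalized counts in the control and 128.6, 97.9 and 131.5 in the ILK-K5 libraries (log2 fold change -0.81, adjusted p = 0.266). Ift122, of the retrograde transport complex, and Arl13b, a GTPase of the ciliary membrane, had log2 fold changes of -0.70 (adjusted p = 0.501) and -0.29 (adjusted p = 0.799).

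Since Gli1 marks cells of the upper bulge, 10 genes of the upper bulge and isthmus, Gli1 included, were followed as a list. The list had 2 genes called lower, against 0.599% of all genes tested, and a median log2 fold change of -0.51. The libraries of 2 of its genes lay above and those of 4 below the controls without overlap, against 10.9% and 6.95% of all genes tested. Aspn, a small matrix proteoglycan, measured 491.1, 343.6 and 256.9 normalized counts in the control and 112.7, 71.0 and 84.7 in the ILK-K5 libraries (log2 fold change -1.99, SE 0.35, adjusted p = 0.0148). Npnt, a matrix ligand of α8 integrin made by bulge cells, measured 7194, 5080 and 4211 against 1770, 1714 and 2701 (log2 fold change -1.41, SE 0.31, adjusted p = 0.0413). For both genes each ILK-K5 library was below each control. With 1 library left out, Aspn was not called without control replicate 2 or ILK-K5 replicates 2 or 3 (adjusted p up to 0.0816), and Npnt was called only without control replicate 3 (0.0337, against 0.0737 to 0.207 without each of the others). Lgr6, a marker of the isthmus, and Egfl6, a matrix protein of the upper bulge, were below all controls without being called (log2 fold changes -0.77 and -1.28, adjusted p = 0.211 and 0.202). DESeq2 called Egfl6 (adjusted p = 0.0194), and limma did without control replicate 3 (adjusted p = 0.00948). Krt79, a keratin of the follicle opening, and Krt17, a keratin of the outer root sheath, lay above all controls in every ILK-K5 library but were not called by limma (log2 fold changes 2.38 and 1.91, adjusted p = 0.0740 and 0.0930). DESeq2 called both (adjusted p = 0.0471 and 0.00375), as did the fit with a term for replicate 1 (0.0256 and 0.00152). With 1 library left out, limma called Krt79 without control replicate 3 (9.55e-04) and Krt17 without ILK-K5 replicate 1 (0.0258).

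The markers of the sorted cells themselves were present in all libraries. Of 11 bulge SC markers 1 was called, Cd34, where 0.599% of all genes tested were called lower. Cd34, one of the 2 surface proteins used in the sort, measured 2009, 947 and 1960 normalized counts in the control and 296, 560 and 433 in the ILK-K5 libraries (log2 fold change -1.90, adjusted p = 0.0239). With 1 library left out, Cd34 was called only without control replicate 2 and without ILK-K5 replicate 2, and adjusted p-values reached 0.0877 without ILK-K5 replicate 1. Itga6, the gene of the other, was not called (0.36, adjusted p = 0.699). Cells of the hair germ and matrix, which respond to Shh and include its source, had 1 of 7 tested markers called, Dlx3. Dlx3 was lower (log2 fold change -2.13, adjusted p = 0.0333), where 0.599% of all genes tested were called lower. It lost its call with any library left out (adjusted p = 0.0501 to 0.102). By sign 4 of the 7 were lower and 3 higher. Lef1 was above all controls in every ILK-K5 library without being called (log2 fold change 0.70). Summed levels of all 11 markers in this list, Shh among them, were 3659 to 7425 normalized counts in the control and 3707 to 6642 in the ILK-K5 libraries.

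Markers of other cell types, besides the macrophages given with Arrb2, moved with the genotype to different degrees. Some of these cells also express Hedgehog genes. Of all genes tested, limma called 2.93% higher and 0.599% lower. The sums of 7 fibroblast markers were 703 to 780 normalized counts in the control and 1545 to 2513 in the ILK-K5 libraries, with 1 of 5 tested called, Col3a1, and with Pdgfra at 13 reads or fewer in every library. Col3a1 was higher (log2 fold change 4.13), and by sign all 5 were higher. For 4 of the 5, every ILK-K5 library was above every control, against 10.9% of all genes tested. The sums of 13 dermal papilla markers were 324 to 590 and 551 to 822, with 1 of 5 tested called, Vcan, and with Sox2 at 0 in all 6. Vcan was higher (log2 fold change 3.33), but by sign 2 of the 5 were lower and 3 higher. Bmp4 was below all controls in every ILK-K5 library (log2 fold change -1.90, adjusted p = 0.332 by limma). The sums of 8 T cell markers were 167 to 193 and 415 to 465, with 2 of 6 tested called, Cd2 and Cd4, both higher. Cd2 had 0, 0 and 3 reads in the control libraries and passed the limit for testing through ILK-K5 libraries alone. By sign 5 of the 6 were higher and 1, Cd3d, was lower (log2 fold change -0.47, adjusted p = 0.855). Dhh, a ligand of Schwann cells in peripheral nerve, stood beside markers of Merkel and Schwann cells that summed to 40.6 to 52.1 in the control and 30.7 to 47.7 in the ILK-K5 libraries, with none of 3 tested called by limma or DESeq2. Of the markers of endothelial cells, melanocytes, sebaceous gland and differentiated keratinocytes, 0 of 3, 1 of 5, 1 of 4 and 1 of 6 tested were called by limma, with Mitf and Lor lower and Elovl3 higher, where 0.599% and 2.93% of all genes tested were. Elovl3 had 0 reads in every control and 7, 45 and 25 in the ILK-K5 libraries. It thus passed the limit for testing through ILK-K5 libraries alone, and its adjusted p reached 0.330 with 1 library left out. Sums of the sebaceous gland markers overlapped, at 506 to 943 in the control and 468 to 863 in the ILK-K5 libraries. DESeq2, which called 6.43% of all genes, called in addition Tek, Tyrp1, Pdgfrb, Bmp4 and Cd3g among the markers of endothelial cells, melanocytes, fibroblasts, dermal papilla and T cells. Tek and Bmp4 were lower (log2 fold changes by limma -2.02 and -1.90), while Tyrp1, Pdgfrb and Cd3g were higher (3.29, 3.89 and 2.31). The part of any of these cells in the Hedgehog values was not tested.

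The genes whose pattern over the 6 libraries was most like that of Gli1, by Pearson correlation of log2 values, were Mif (0.974), Hoxc10 (0.974) and Cox18 (0.959), and 13 genes in all exceeded 0.9. For Hhip they were Pycr1 (0.999), Tgfb2 (0.996) and Smarce1 (0.995), with 271 genes above 0.9. For Ptch1 they were Irak1bp1 (0.997), Gm37058 (0.996) and Khdrbs2 (0.996), and 900 genes exceeded 0.9. The Ptch1 pattern, high in replicate 1 of both genotypes, was thus the most widely shared of the 3. No pathway gene was among the 3 most alike for any of them, and these correlations share library and depth and are descriptions over 6 points.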

How the data were processed

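RNA of CD34+/α6 integrin-high bulge SCs was taken up in TRIzol LS, cDNA was amplified (Ovation RNA-Seq System V2) and made into Nextera XT libraries, sequenced as read pairs. Adapter sequences and ribosomal reads were removed and the rest aligned to GRCm38, with TopHat2 2.0.14, Bowtie2 2.2.4 and DESeq2 1.6.3 named in the submitters' processing notes. The counting program, its use of strand and its handling of overlapping genes are not given in the sources used here.

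The signal in the table of normalized counts was deposited by the authors as reads per gene divided by 1 size factor per library. In every library 100% of the values were whole multiples of 1 smallest value (tolerance 0.001 reads), so the reads were recovered. The FPKM values deposited by the authors differ from them by a length factor that is constant for each gene. Further deposited tables hold the authors' own comparison (mean, log2 fold change, standard error, statistic, p-values) and were not used. Of 43274 genes, 42107 (97.3%) had a symbol in GENCODE M21 for GRCm38, which also gave coordinates and shared exon bases. Promoter windows were those of RefSeq (GRCm38.p6).

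Genotypes were compared with limma 3.58.1 (eBayes with a trend, two-sided) in R 4.3.3 on log2(normalized count + 1) over 16368 genes whose mean was 10 or more, without a block, with Benjamini-Hochberg adjustment over all of them. Exact permutation tests over the 6 libraries were two-sided. The alternatives tried were pseudocounts of 0.1 and 5, no filter, a mean of at least 50, TMM scaling, quantile normalization, the FPKM table (pseudocount 0.1), edgeR 4.0.16 and DESeq2 1.42.0 on the recovered reads, the replicate number as a block, a term for replicate 1 against 2 and 3, replicates 2 and 3 alone, and each library left out. The fits were tried on simulated data with the same dispersion for every gene and with changes placed only in genes of a mean of at least 50. Hhip, Shh and Dhh lie below that mean, so the simulation does not cover them. A gene was at the floor of a genotype with at most 3 reads in every library, and bounds cover counting error only. Python 3.11.15 was used for tables.

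The named genes were the 8 pathway genes, Ilk, from each pathway list every called gene or else up to 4 whose libraries did not overlap, some genes at 0 in all libraries, for each cell type the counts, summed levels and selected markers, and the 3 genes most like Gli1, Ptch1 and Hhip. Any other name was picked with its values in view, and 1 listed gene is not reported here. The pathway genes and all lists were chosen with earlier results of these data known, so no pattern here is independent of them.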

Additional observations from a re-analysis of the deposited data

How the results depend on the processing

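Over all genes limma called 479 higher and 98 lower in ILK-K5 bulge SCs. DESeq2 called 772 and 280, the fit with the replicate number as a block 848 and 269, and a term for replicate 1 against 2 and 3 846 and 286. Leaving out 1 library at a time gave 222 to 559 higher and 32 to 98 lower. The cause of these shifts was not tested. Of the Hedgehog pathway genes 0 were called, 1 with DESeq2 and 0 to 1 with a library left out (Hhip both times). The log2 fold change of Ptch1 was -1.10 to 0.16 with a library left out, turning from -0.49 to 0.16 without control replicate 1, and those of Smo, Sufu, Gli1, Gli2 and Gli3 kept their sign and were not called under all 18 alternatives. Hhip stayed negative in the 17 that could be computed, since its mean was under 50, and Shh had a value only without the filter. Same-numbered libraries deviated from their group means with correlations of 0.529, 0.0198 and 0.307. Control replicate 3 correlated better with ILK-K5 replicate 2 (0.498), while control replicate 2 was near 0 with every ILK-K5 library (-0.0600 to 0.0738). The numbers were not taken as pairs, though these correlations do not settle whether they were. Under the replicate block 0 pathway genes were called, while Scube2 (adjusted p = 0.00424), Ccnd1 (0.0273), Krt17 (0.00123) and Krt79 (0.00886) were. The bounds for Shh and Dhh without each ILK-K5 library were added after the data were seen. At this depth, Shh, Dhh and Hhip rest on at most 74 reads in any library.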
